A study of Mus musculus with 12 samples.

Results

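Galectins are lectins that bind β-galactosides, and 7 genes of this kind were followed here through all 12 libraries, out of 17995 genes in the table: Lgals1, Lgals3, Lgals4, Lgals7, Lgals8 and Lgals9, which encode galectins, and Lgals3bp, which encodes a secreted glycoprotein that galectin-3 binds. The genes were picked by symbol, and the set was chosen from measured values of these same libraries. For that reason their levels and differences are given as a description with their spread, with no test. Tests are given only for further genes of the family and for genes that make, carry or respond to the glycans that galectins bind.

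Galectins are made without a signal peptide and act both outside the cell, where they cross-link glycoproteins of the surface and the matrix, and inside it, where they mark endosomes and lysosomes whose membrane has broken. Prototype galectins have a single carbohydrate recognition domain, tandem-repeat galectins have a pair of them on 1 chain, and galectin-3 alone joins such a domain to a long tail through which it forms oligomers. In the testis, galectin-1 is known as a product of Sertoli cells, and galectin-3 is also widely used as a marker of macrophages.

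C18-4 cells, a line derived from mouse type A spermatogonia, and TM4 cells, a line derived from mouse Sertoli cells, were compared after viral delivery of short hairpin RNAs. The 4 groups were C18-4 shNC, C18-4 shM5, TM4 shNC and TM4 shM5, with 3 libraries each. The shM5 groups received a mixture of 3 hairpins against the muscarinic acetylcholine receptor M5, which the gene Chrm5 encodes, and the shNC groups received the control hairpin. The labels give the strain as IRC for all 12 libraries and do not say whether the libraries of a group came from separate cultures, so that p-values measure the spread between libraries, which may be technical. Whether the transfected cells were 1 clone or a pool is not given in the sources used here. Levels are in RPKM, reads scaled to gene length and library size, in which different genes can be compared.

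The libraries were not alike in their profiles, and their depth could not be told from RPKM. Chrm5 was listed at 0.01 RPKM in 1 shNC library of each line and at 0 in the other 10 libraries, so its mRNA could not check the labels. Of 8 genes of spermatogonia with values, Id4 (1.64 to 4.71 RPKM) and Etv5 (1.63 to 2.29 RPKM) were above 1 RPKM in all 6 C18-4 libraries, while Zbtb16, Ddx4 and Dazl stayed below 0.1 RPKM. Id4 was at 0.20 RPKM or less in TM4 cells, and Etv5 was higher there, at 5.98 to 7.49 RPKM. The C18-4 libraries also held 68.27 to 100.82 RPKM of the epithelial keratin Krt18 and 53.93 to 72.32 RPKM of the Sertoli gene Wt1. Of 9 Sertoli genes with values, Kitl was at 18.42 to 49.50 RPKM, Gata4 at 4.62 to 12.48 RPKM and Sox9 at 1.11 to 1.74 RPKM in the 6 TM4 libraries. There Cldn11 and Clu stayed below 0.1 RPKM, Wt1 did not pass 0.15 RPKM and Amh did not pass 0.19 RPKM. In C18-4 cells Kitl was at 2.06 to 2.93 RPKM, Gata4 at 3.67 to 7.84 RPKM, Clu at 5.55 to 10.48 RPKM and Sox9 below 0.1 RPKM. In TM4 cells, shNC replicate 3 stood apart from shNC replicates 1 and 2, at a root mean square log2 distance of 0.640 and 0.642, and was closer to the shM5 libraries, at 0.202 to 0.257. In C18-4 cells, replicate 3 of both groups stood apart from replicates 1 and 2. These libraries bear on most values below, and values without TM4 shNC replicate 3 are given beside the shM5 differences in TM4 cells and beside the counts of genes that passed. RNA of whole cultures was measured, so fewer cells of a kind and less RNA per cell cannot be told apart.

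The stretch around the transcription start is shown for Lgals3, Lgals8 and Lgals9, because these are the members that moved most closely together or against each other across the libraries. RefSeq promoters of GRCm38.p6, 250 bases before to 50 bases after the start, matched 6 of the 7 members, all but Lgals1. They lie at chr14:47373610-47373909 on the plus strand for Lgals3, at chr13:12461689-12461988 on the minus strand for Lgals8 and at chr11:78984875-78985174 on the minus strand for Lgals9. They are written from 5′ to 3′ along the gene, with matches to the motifs named below in capitals.
Lgals3: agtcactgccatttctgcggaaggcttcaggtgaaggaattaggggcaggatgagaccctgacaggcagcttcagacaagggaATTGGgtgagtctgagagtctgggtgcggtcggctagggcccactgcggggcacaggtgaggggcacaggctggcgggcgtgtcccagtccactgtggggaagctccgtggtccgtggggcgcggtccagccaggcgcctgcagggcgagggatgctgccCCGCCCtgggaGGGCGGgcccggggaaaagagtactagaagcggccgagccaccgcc
Lgals8: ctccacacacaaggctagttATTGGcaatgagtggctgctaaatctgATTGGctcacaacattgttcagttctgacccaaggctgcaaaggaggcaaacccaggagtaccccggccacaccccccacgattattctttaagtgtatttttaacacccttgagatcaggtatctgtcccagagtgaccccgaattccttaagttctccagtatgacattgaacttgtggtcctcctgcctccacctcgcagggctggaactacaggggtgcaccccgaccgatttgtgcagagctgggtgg
Lgals9: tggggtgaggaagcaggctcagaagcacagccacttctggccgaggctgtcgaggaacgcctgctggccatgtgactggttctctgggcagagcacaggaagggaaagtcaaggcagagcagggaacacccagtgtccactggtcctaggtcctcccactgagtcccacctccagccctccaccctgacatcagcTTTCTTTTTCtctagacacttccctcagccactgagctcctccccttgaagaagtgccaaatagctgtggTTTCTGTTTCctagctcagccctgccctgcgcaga

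The promoters of Lgals3 and Lgals8 held a CCAAT box, and that of Lgals9 held none. Any link between the motifs and the levels of these genes was not tested. The capitals in Lgals3 mark 1 CCAAT box, 167 bases before the start on the reverse strand, and 2 GC boxes (GGGCGG), 7 bases before the start on the reverse strand and at base 5 of the transcript. In Lgals8 they mark 2 CCAAT boxes on the reverse strand, 230 and 203 bases before the start. In Lgals9 they mark 2 matches to the core of the interferon-stimulated response element, written here as a pair of GAAA half-sites with 2 bases of any kind between them, both on the reverse strand, 55 bases before the start and at base 16 of the transcript. Over all 32851 promoters of the table, 37.4% held CCAAT, 35.7% held GGGCGG and 3.44% held the GAAA pair, on either strand. The Lgals3 promoter was 67.0% G and C with 18 CpG, against medians of 52.7% and 7 over all promoters. The other motifs searched were TATAAA (in 13.6% of promoters), the AP-1 site TGANTCA (7.81%), the STAT site TTCNNNGAA (8.3%), the antioxidant response element TGACNNNGC (12.4%) and the amino acid response element TGATGNAA (3.97%), and these 3 promoters held none of them. Among the members not shown, Lgals3bp held 1 TGATGNAA, Lgals4 held 1 CCAAT and 1 GGGCGG, and Lgals7 held 1 GGGCGG that overlapped a TGACNNNGC. A match describes the letters of this window and no more.

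Both lines held much more Lgals1 than any other member, and they differed in which galectin came next. Lgals9 was next in C18-4 cells and Lgals3 in TM4 cells. Lgals1 made up 80.4% to 85.2% of the summed RPKM of the 7 genes in the C18-4 libraries and 85.6% to 91.8% in the TM4 libraries. By RPKM it ranked 36th to 50th of all 17995 genes in C18-4 cells and 4th to 6th in TM4 cells. In the C18-4 shNC libraries the order of mean levels was Lgals1, Lgals9, Lgals3, Lgals8, Lgals3bp, Lgals7 and Lgals4, and of these neighbours the libraries of Lgals7 and Lgals4 overlapped. In the TM4 shNC libraries the order was Lgals1, Lgals3, Lgals9, Lgals3bp, Lgals8, Lgals4 and Lgals7, and Lgals3bp overlapped both Lgals9 and Lgals8.

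**Figure D1:**
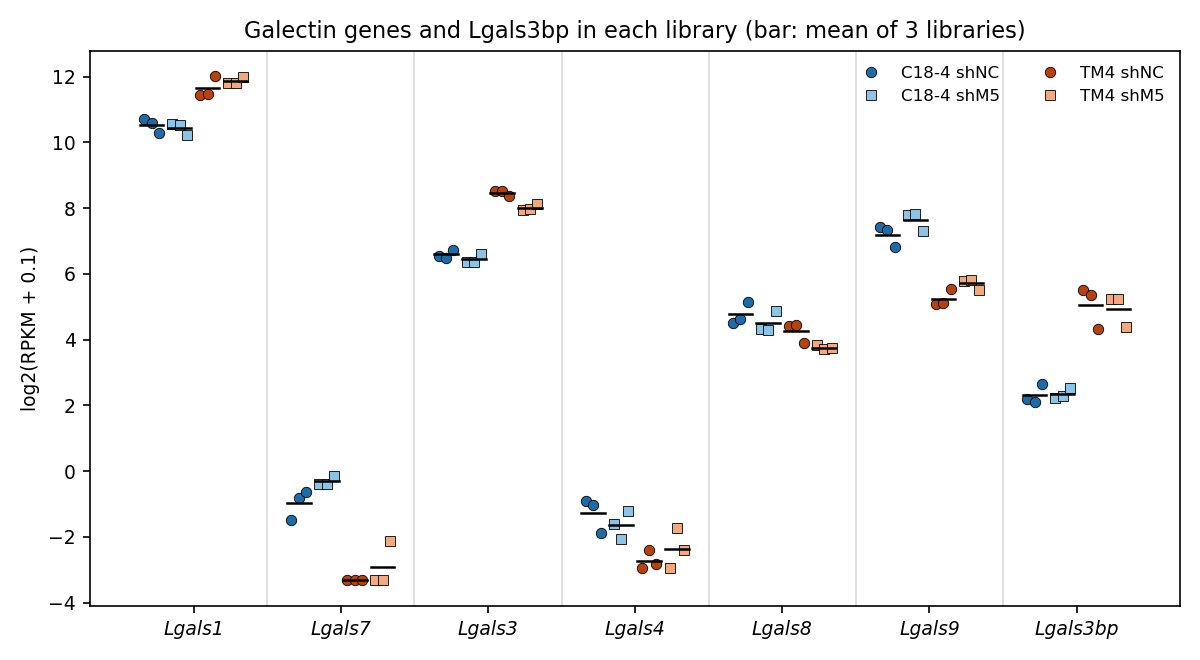
Level of each member, as log2(RPKM + 0.1), in the 3 libraries of each of the 4 groups, with a bar at the mean of the group. Lgals1, Lgals3 and Lgals3bp sit higher in TM4 cells and Lgals9 sits higher in C18-4 cells, while Lgals7 and Lgals4 stay below 1 RPKM, which is near 0 on this axis, in all 12 libraries.

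Among the prototype galectins, Lgals1 encodes galectin-1, a dimeric lectin that binds laminin, fibronectin and integrins. It was listed at 1689.92, 1536.75 and 1247.03 RPKM in the C18-4 shNC libraries and at 2792.67, 2814.06 and 4142.95 RPKM in the TM4 shNC libraries. All TM4 libraries lay above all C18-4 libraries, and the means were 1491 ± 225 and 3249.9 ± 773 RPKM (SD, n = 3). The log2 difference between the lines, TM4 minus C18-4, was 1.11 ± 0.19 (SE), and 0.92 ± 0.15 without TM4 shNC replicate 3.

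With shM5, Lgals1 was listed at 1496.26, 1460.26 and 1190.63 RPKM in C18-4 cells and at 3596.83, 3587.06 and 4027.98 RPKM in TM4 cells. In both lines the shM5 and shNC libraries overlapped. In C18-4 cells each shM5 library was lower than the shNC library of the same number, with a log2 difference of -0.11 ± 0.14. Without single libraries this ran from -0.23 without shNC replicate 3 to -0.0013 without shM5 replicate 3. In TM4 cells the log2 difference was 0.22 ± 0.16. It was 0.13 without shNC replicate 1 or 2, and 0.41 ± 0.06 without shNC replicate 3, whose Lgals1 level was the highest of all 12 libraries. Without that library the 3 shM5 libraries all lay above the other 2 shNC libraries.

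Lgals7 encodes galectin-7, a prototype galectin of stratified epithelia. In C18-4 cells it was listed at 0.26, 0.47 and 0.54 RPKM with shNC and at 0.66, 0.67 and 0.81 RPKM with shM5. Every shM5 library lay above every shNC library, at a level where single reads weigh heavily. The log2 difference was 0.67 ± 0.29 on the log2(RPKM + 0.1) scale and 0.27 with 1 in place of 0.1, and it was 0.42 without shNC replicate 1. TM4 cells had it at 0 in 5 libraries and at 0.13 RPKM in shM5 replicate 3. The epithelial list summed to 72.4 to 85.97 RPKM in C18-4 shNC cells and to 92.05 to 106 RPKM in C18-4 shM5 cells. It reached at most 0.14 RPKM in TM4 cells. Most of the C18-4 sum was Krt18, at 68.27 to 81.39 RPKM with shNC and 87.96 to 100.82 RPKM with shM5. The other list genes did not share its rise: Epcam (1.15 to 2.06 and 1.66 to 2.32 RPKM) and Krt8 (2.12 to 2.66 and 2.06 to 3.26 RPKM) overlapped. The median of Krt14 was lower with shM5 (0.37 and 0.06 RPKM), and Cdh1 did not pass 0.07 RPKM. The part of these genes in the Lgals7 level was not tested.

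Lgals3, which encodes the chimera-type galectin-3, set the lines apart without overlap and was lower with shM5 in TM4 cells. It was listed at 93.75, 89.74 and 106.69 RPKM in the C18-4 shNC libraries and at 367.41, 368.83 and 327.65 RPKM in the TM4 shNC libraries. The means were 96.7 ± 8.86 and 355 ± 23.4 RPKM (SD, n = 3), and the lines did not overlap. TM4 cells held 3.67 times the C18-4 level, a log2 difference of 1.88 ± 0.10.

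In TM4 cells the groups did not overlap. The shM5 libraries were listed at 244.86, 250.39 and 280.05 RPKM, with a mean of 258 ± 18.9 RPKM, and all 3 lay below the lowest shNC library. The log2 difference was -0.46 ± 0.08, and -0.51 ± 0.06 without shNC replicate 3, which was the lowest of the shNC libraries. Of the shM5 libraries, replicate 3 was nearest to the shNC group. Without replicate 3 of both groups the log2 difference was -0.57.

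In C18-4 cells the shM5 libraries held 81.68, 82.78 and 96.80 RPKM of Lgals3. They overlapped the shNC libraries, because replicate 3 was the highest in both groups. Each shM5 library was lower than the shNC library of its number, and the log2 difference was -0.15 ± 0.10, or ± 0.04 when the fit took the replicate number as a block. Leaving out shNC replicate 3 gave -0.08, and leaving out shM5 replicate 3 gave -0.23. The difference in log2 response between TM4 and C18-4 cells was -0.31 ± 0.13, given here as a value with no test.

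Macrophage markers were low beside these levels of Lgals3. Those above 1 RPKM were Cd14 in TM4 cells and Cd68 in both lines. Cd68 was at 1.83 to 4.24 RPKM in C18-4 cells and at 1.06 to 1.56 RPKM in TM4 cells. Adgre1, which encodes F4/80, was at 0 in all 12 libraries, and Ptprc, which encodes CD45, did not pass 0.04 RPKM. The 9 macrophage genes with values summed to 16.8 to 20.4 RPKM in the TM4 shNC libraries and to 17.3 to 20.2 RPKM in the TM4 shM5 libraries, of which Cd14 made up 15.10 to 18.79 RPKM. In C18-4 cells the sums lay between 2.79 and 5.16 RPKM.

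The tandem-repeat galectins went different ways. Lgals8 encodes galectin-8, which binds sialylated glycans and marks broken vesicles for autophagy, and Lgals9 encodes galectin-9, a ligand of TIM-3. Lgals8 was listed at 22.80, 24.85 and 35.40 RPKM in C18-4 shNC cells and at 21.40, 21.74 and 14.89 RPKM in TM4 shNC cells. The lowest C18-4 library lay just above the highest TM4 library, and the log2 difference was -0.51 ± 0.22. It was -0.33 ± 0.19 without TM4 shNC replicate 3, and -0.32 without C18-4 shNC replicate 3.

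With shM5, Lgals8 was listed at 19.93, 19.56 and 29.29 RPKM in C18-4 cells and at 14.14, 12.93 and 13.27 RPKM in TM4 cells. In TM4 cells all shM5 libraries lay below all shNC libraries, and shNC replicate 3 was again next to them. The log2 difference there was -0.50 ± 0.16, and -0.68 ± 0.06 without that library. In C18-4 cells the groups overlapped through replicate 3, each same-numbered pair was lower with shM5, and the log2 difference was -0.27 ± 0.21, or ± 0.06 with the replicate block. Leaving out shNC replicate 3 gave -0.08, and leaving out shM5 replicate 3 gave -0.46.

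Lgals9 was higher in C18-4 than in TM4 cells, and its mean was higher with shM5 in both lines. It was listed at 171.08, 162.72 and 111.73 RPKM in C18-4 shNC cells against 33.66, 34.66 and 46.64 RPKM in TM4 shNC cells. The lines were far apart, 148.5 ± 32.1 against 38.3 ± 7.22 RPKM (SD, n = 3), with a log2 difference of -1.94 ± 0.20. C18-4 cells therefore held more Lgals9 than Lgals3, and the ratio of Lgals3 to Lgals9 lay between 0.548 and 0.955 in the C18-4 shNC libraries and between 7.03 and 10.9 in the TM4 shNC libraries.

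With shM5, Lgals9 lay above the same-numbered shNC library in all 3 pairs of C18-4 libraries, at 221.67, 224.29 and 157.80 RPKM. The groups still overlapped, since shM5 replicate 3 lay below shNC replicates 1 and 2. The log2 difference was 0.44 ± 0.20, and the SE narrowed to 0.04 with the replicate block. Leaving out shNC replicate 3 gave 0.25, and leaving out shM5 replicate 3 gave 0.61. In TM4 cells the shM5 libraries were listed at 55.48, 56.14 and 45.68 RPKM, and the groups overlapped through shNC replicate 3. There the log2 difference was 0.46 ± 0.15, and 0.61 ± 0.09 without shNC replicate 3.

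The remaining tandem-repeat member, Lgals4, encodes galectin-4 of the gut epithelium. It lay between 0.14 and 0.43 RPKM in the C18-4 libraries and between 0.03 and 0.20 RPKM in the TM4 libraries, and was too low for the fit in either line. Lgals6, a close copy of Lgals4 in some mouse strains, was not analysed here, and the reads of the 2 genes may have been divided in counting.

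Lgals3bp encodes the galectin-3-binding protein, a scavenger receptor cysteine-rich glycoprotein that interferon and viral infection are known to raise. It was listed at 4.45, 4.22 and 6.23 RPKM in C18-4 shNC cells and at 45.52, 40.80 and 20.06 RPKM in TM4 shNC cells. No TM4 library came near the C18-4 range, and the log2 difference was 2.75 ± 0.33, or 3.11 ± 0.18 without TM4 shNC replicate 3. With shM5 it was listed at 4.60, 4.77 and 5.65 RPKM in C18-4 cells and at 37.44, 37.23 and 20.67 RPKM in TM4 cells. Replicate 3 was the lowest library of both TM4 groups, and both comparisons overlapped. The log2 differences were 0.03 ± 0.17 in C18-4 cells and -0.12 ± 0.37 in TM4 cells, and the latter was -0.49 ± 0.24 without shNC replicate 3.

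**Figure D2:**
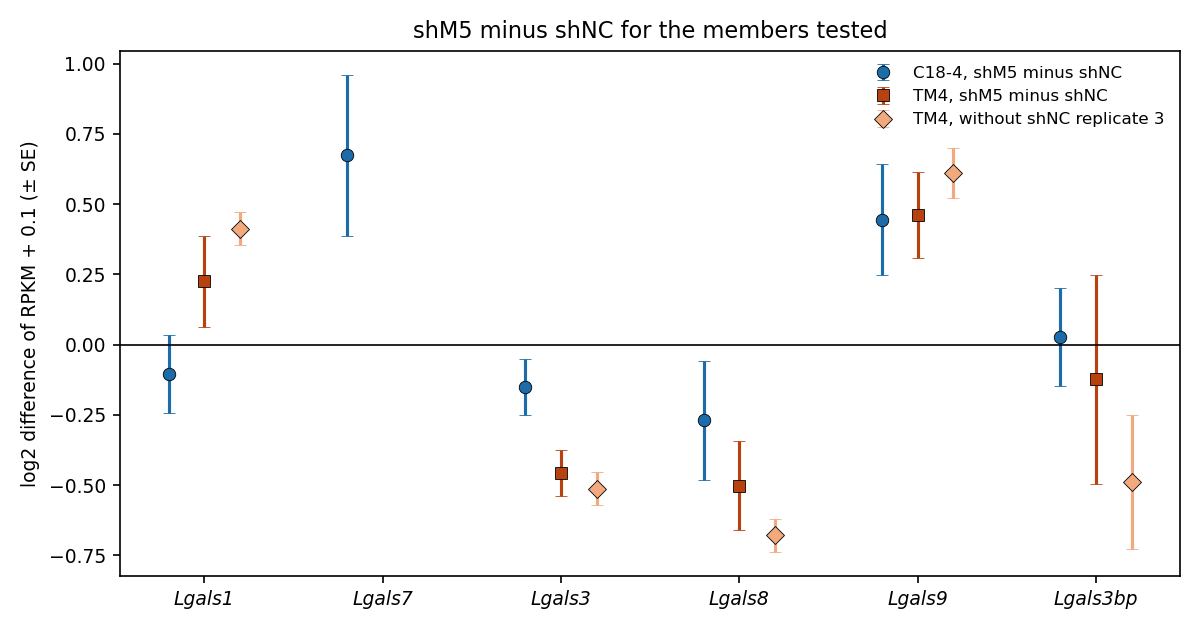
Log2 difference of RPKM + 0.1 between shM5 and shNC for the members that passed the filter on low values, with bars of 1 SE, in C18-4 cells, in TM4 cells and in TM4 cells without shNC replicate 3. Lgals3 (-0.46 in TM4 cells) and Lgals8 (-0.50) lie below 0 and Lgals9 lies above 0 in both lines (0.44 and 0.46), while Lgals1 and Lgals3bp lie on different sides of 0 in the 2 lines, and Lgals7 has a value in C18-4 cells only.

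The counts over the members are set here beside those over all genes, and since the members were chosen with these values known, nothing is read from them. Between the lines all 7 members lacked overlap in the shNC libraries, 3 higher and 4 lower in TM4 cells, as did 63.6% of the 11810 genes tested. In TM4 cells the shM5 and shNC libraries of 2 members, Lgals3 and Lgals8, did not overlap, against 26.8% of 11016 genes tested. In C18-4 cells this was so for 1 member, Lgals7, against 18.9% of 11611 genes tested. All 3 same-numbered C18-4 pairs went 1 way for 5 of the 7 members, as they did for 50.5% of those genes. With the filter on low values, 6 members could be fitted in C18-4 cells, 5 in TM4 cells and 5 between the lines. The shares over all genes cover only genes that passed this filter, which between the lines leaves out Lgals4 and Lgals7.

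Across the 12 libraries, after each line was centred on its own mean, Lgals3 and Lgals8 went up and down together and Lgals9 went the other way. Pearson's r of log2(RPKM + 0.1) was 0.87 for Lgals3 and Lgals8, -0.89 for Lgals3 and Lgals9 and -0.94 for Lgals8 and Lgals9. Each sign held within C18-4 cells (0.95, -0.97 and -0.97) and within TM4 cells (0.88, -0.94 and -0.93). Lgals1 and Lgals3bp also ran against each other, with r = -0.84. These points share libraries, treatment and the libraries that stood apart, so that r describes these 12 libraries and no more. In both C18-4 groups replicate 3 had more Lgals3 and Lgals8 and less Lgals9 than replicates 1 and 2, and TM4 shNC replicates 1 and 2 differed from the other 4 TM4 libraries in the same way.

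**Figure D3:**
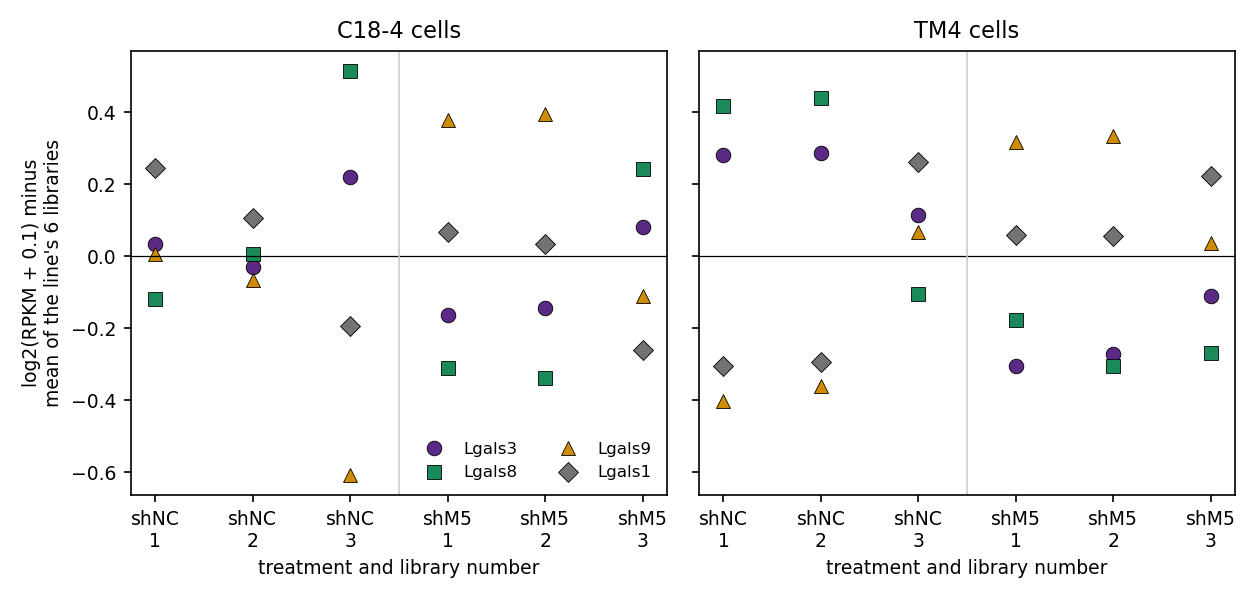
Level of Lgals3, Lgals8, Lgals9 and Lgals1 in each library, as log2(RPKM + 0.1) minus the mean of the 6 libraries of the line, for C18-4 cells (left) and TM4 cells (right). Lgals3 and Lgals8 lie on the opposite side of 0 from Lgals9 in all C18-4 libraries but shNC replicates 1 and 2 and in all TM4 libraries but shNC replicate 3, and TM4 shNC replicate 3 lies away from shNC replicates 1 and 2 for all 4 genes.

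The genes most like each member were taken from the 8769 genes whose mean reached 5 RPKM, by the same line-centred r over 12 libraries. For Lgals3 these were Ptgs2 (0.96), which encodes the inducible cyclooxygenase, Arl8b (0.95), a small GTPase of lysosome transport, Tom1 (0.95), an endosomal adaptor, Cnnm4 (0.94), a magnesium transporter, and Ubald1 (0.94). Lgals8 was most like B230219D22Rik (0.99), Ppfia1 (0.98), which encodes liprin-α1, and Ndrg1 (0.98). Lgals9 was most like Anxa5 (0.98), which encodes annexin A5, Copg1 (0.98), a subunit of the COPI coat, and Nup93 (0.97), a nucleoporin. Lgals1 was most like Txlna (0.98), Tubb6 (0.98), a β-tubulin, and Id1 (0.97). Lgals3bp was most like Shisa5 (0.998), H2-K1 (0.96), a class I histocompatibility heavy chain, and Parp9 (0.95).

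Peritubular myoid genes were summed in the same libraries. The sums were higher with shM5 in C18-4 cells, through Acta2 and Tagln, and overlapped in TM4 cells. In C18-4 cells Cnn1 (3.22 to 3.41 RPKM with shNC, 3.24 to 3.66 with shM5) and Des (4.26 to 6.60 and 4.59 to 5.62) overlapped. Myh11 stayed below 0.1 RPKM there. The sum of the 5 genes was 61.9 to 77.9 RPKM in C18-4 shNC cells and 113 to 158 RPKM in C18-4 shM5 cells. In TM4 cells it was 122 to 250 RPKM with shNC and 231 to 350 RPKM with shM5. Its part in the member values was not tested.

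Of the other genes of the family, Lgals2 and Lgalsl had values high enough for a test. Lgals2, a prototype galectin of the gut, was listed at 8.93, 10.30 and 14.41 RPKM in C18-4 shNC cells and at 7.35, 7.41 and 9.64 RPKM in C18-4 shM5 cells. Each shM5 library was lower than the shNC library of its number, with a log2 difference of -0.44 ± 0.20 (limma adjusted p = 0.435, or 0.0146 with the replicate block). In TM4 shNC cells it was listed at 0 in 2 libraries and at 0.13 RPKM in replicate 1, and it was lower than in C18-4 shNC cells (limma adjusted p = 9.69e-06).

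Lgalsl encodes a galectin-related protein that lacks lectin activity. It was listed at 17.29, 17.30 and 22.74 RPKM in C18-4 shNC cells and at 13.63, 13.56 and 17.27 RPKM in C18-4 shM5 cells, and the highest shM5 library lay just under the lowest shNC library. The log2 difference was -0.36 ± 0.15 (limma adjusted p = 0.384, or 0.0097 with the replicate block). In TM4 cells it was -0.15 ± 0.15 (limma adjusted p = 0.464), or -0.31 ± 0.07 without shNC replicate 3 (limma adjusted p = 0.00517). Between the lines it was -0.72 ± 0.18 in shNC cells (limma adjusted p = 0.0136). Grifin, a galectin-related gene of the lens, was at 0.15 RPKM or less in all 12 libraries, and Lgals12 was not analysed here.

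Whether a galectin binds depends on the glycans of the cell, which were followed through 5 lists with 84 genes in the table. The lists cover the enzymes that branch N-glycans, those that add galactose and N-acetyllactosamine, those that add or remove sialic acid, the glycoproteins that galectins bind, and the autophagy and membrane repair genes that respond to broken vesicles together with galectins 3, 8 and 9.

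Between the lines these genes differed about as often as other genes did, in both directions. With limma, 40 of 75 partner genes tested differed between TM4 and C18-4 shNC cells, 18 higher and 22 lower in TM4 cells, where 55.2% of all genes tested did (2422 higher and 4095 lower). Without TM4 shNC replicate 3 it was 50 of 74, 23 higher and 27 lower, where 69.1% of all genes tested did. Median-centring each library moved the median of all genes from -0.15 to -0.02 log2, with 3019 genes higher and 3459 lower and, among the partner genes, 25 higher and 21 lower. Relative to that centre, the members' log2 differences were 1.24 for Lgals1, 2.003 for Lgals3, 2.87 for Lgals3bp, -0.38 for Lgals8 and -1.81 for Lgals9, so no member turned its direction.

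Among the branching enzymes 3 were higher and 3 lower in TM4 cells, of 11 tested, with a list median of 0.06 log2. Man2a1, the Golgi α-mannosidase II, was listed at 18.77, 20.21 and 33.54 RPKM in C18-4 cells and at 82.57, 87.50 and 86.13 RPKM in TM4 cells. It was 3.65-fold higher in TM4 cells on the log2(RPKM + 0.1) scale (limma adjusted p = 0.000377). Man1c1, another α-mannosidase, was at 3.03 to 4.12 RPKM in C18-4 cells and at 0 in all 3 TM4 libraries (limma adjusted p = 1.24e-06).

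The enzymes of galactose and N-acetyllactosamine also divided the lines, with 4 higher and 4 lower in TM4 cells of 16 tested and a list median of 0.22 log2. B4galt4, a β1,4-galactosyltransferase, was listed at 12.45, 12.46 and 17.51 RPKM in C18-4 cells and at 0, 0.03 and 0 RPKM in TM4 cells (limma adjusted p = 5.50e-07). B3gnt5, which starts lacto-series glycolipids, was at 9.56, 9.52 and 15.20 RPKM in C18-4 cells and at 0 in all TM4 shNC libraries (limma adjusted p = 7.65e-07). In the other direction B4galt6, which makes lactosylceramide, was at 1.78, 1.89 and 2.15 RPKM in C18-4 cells and at 7.07, 6.49 and 9.50 RPKM in TM4 cells (limma adjusted p = 0.000149). B4galt5, with the same activity, was 2.25-fold higher in TM4 cells (limma adjusted p = 0.00141).

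Sialyltransferases cap the galactose that galectins bind, and whether binding remains depends on the galectin and on the linkage of the cap. Galectin-8, for example, accepts the α2,3 linkage. Of 13 genes tested, 2 were higher and 5 lower in TM4 cells, with a list median of -0.42 log2. St6gal1, which adds the α2,6-linked cap, was at 3.17, 3.28 and 4.51 RPKM in C18-4 cells and at 0 in all TM4 shNC libraries (limma adjusted p = 1.37e-06). St3gal1, which caps O-glycans, was listed at 1.71, 1.65 and 1.91 RPKM in C18-4 cells and at 11.44, 12.22 and 22.76 RPKM in TM4 cells. The latter difference was 7.99-fold (limma adjusted p = 0.000102).

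Of the glycoproteins that galectins bind, 6 were higher and 6 lower in TM4 cells of 19 tested, with a list median of 0.13 log2. Fn1, fibronectin, was listed at 7.55, 8.58 and 8.09 RPKM in C18-4 cells and at 626.54, 623.77 and 421.34 RPKM in TM4 cells, 67.2-fold higher (limma adjusted p = 4.20e-07). Cd44, the hyaluronan receptor, was 2.43-fold higher (limma adjusted p = 0.00283). Itga3, the integrin α3 subunit, was 4.51-fold lower in TM4 cells (limma adjusted p = 0.000224), and Pdpn, podoplanin, was 2.76-fold lower (limma adjusted p = 0.000416).

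In the response to broken vesicles 3 genes were higher and 4 lower in TM4 cells of 16 tested, with a list median of -0.21 log2. Optn, an autophagy receptor, was at 12.51, 14.22 and 19.84 RPKM in C18-4 cells and at 1.08, 0.83 and 0.74 RPKM in TM4 cells (limma adjusted p = 8.25e-06). Tbk1, the kinase that acts on it, was 1.66-fold lower in TM4 cells (limma adjusted p = 0.00114).

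**Figure D4:**
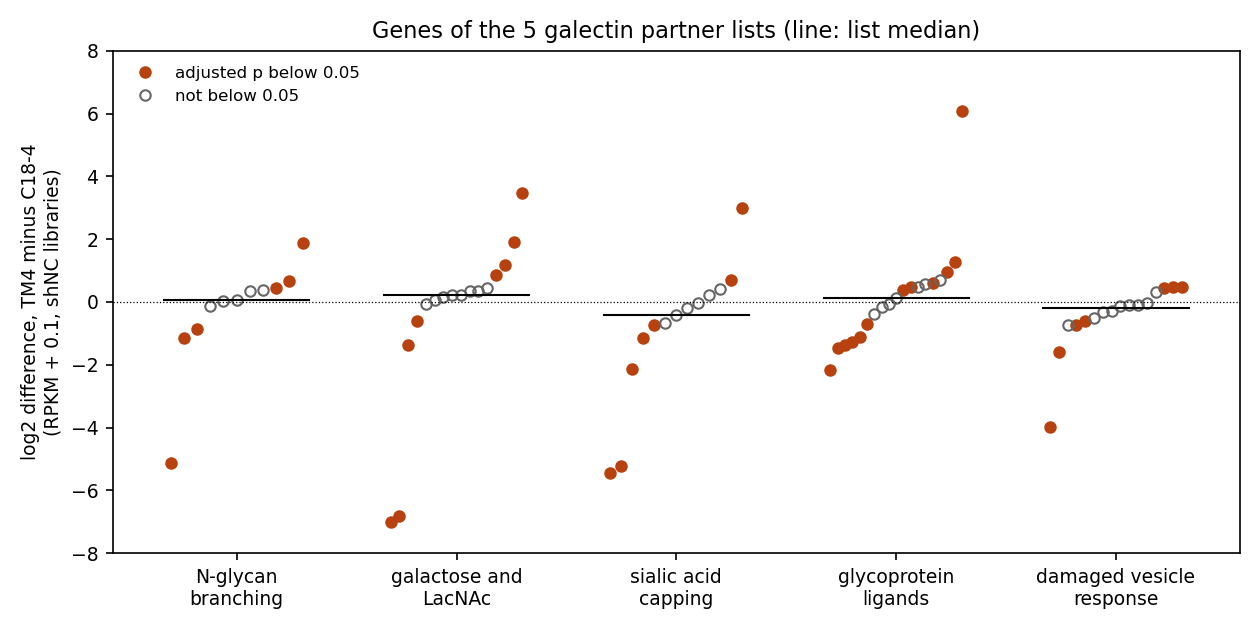
Log2 difference of RPKM + 0.1 between TM4 and C18-4 cells in the shNC libraries for each partner gene tested, by list, with a line at the list median; filled points had a limma adjusted p below 0.05 and open points did not. Called genes lie on both sides of 0 in every list, from 6.07 for Fn1 down to -7.01 for B4galt4.

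With shM5 in C18-4 cells, 0 of 74 partner genes passed the limma test, where 0.586% of all genes did. An unadjusted p below 0.05 was found for 11 of the 74 partner genes and for 1425 of all 11611 genes tested. With the library number as a block, an assumed pairing, 9 partner genes passed, 5 higher and 4 lower, where 11.9% of all genes did. Nrp1, neuropilin-1, was listed at 12.30, 12.59 and 9.90 RPKM with shNC and at 21.36, 22.77 and 13.69 RPKM with shM5 (log2 difference 0.70, limma adjusted p = 0.228, or 0.0034 with the block). Itgb1, the integrin β1 subunit, was listed at 269.36, 269.63 and 273.02 RPKM with shNC and at 323.58, 326.13 and 311.06 RPKM with shM5 (limma adjusted p = 0.159, or 0.0119 with the block). All shM5 libraries lay above all shNC libraries for both genes.

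Lamc1, the laminin γ1 chain, was lower, at 55.59, 59.81 and 69.58 RPKM with shNC and 43.81, 46.01 and 51.57 RPKM with shM5 (limma adjusted p = 0.00367 with the block, not passing without it). B4galt6 was listed at 1.78, 1.89 and 2.15 RPKM with shNC and at 0.79, 0.96 and 1.13 RPKM with shM5, without overlap (limma adjusted p = 0.0985, or 0.00892 with the block). Of the enzymes that extend glycans, Gcnt1 and B3gnt5 passed with the block as higher, at log2 differences of 0.66 and 0.55. The other genes that passed with the block were Tfrc as higher and B4galt2 and Calcoco1 as lower. The branching and sialic acid lists had no gene that passed, with 12 and 13 tested.

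In TM4 cells 0 of 71 partner genes passed the limma test with shM5, as did 0% of all 11016 genes tested, although 21 partner genes and 2866 genes in all had an unadjusted p below 0.05. Without shNC replicate 3, 49 of the partner genes passed, 26 higher and 23 lower, and so did 67.4% of all genes tested. The genes with the largest differences followed the same division of the libraries. Sqstm1, the autophagy receptor p62, was listed at 484.35, 462.93 and 110.39 RPKM with shNC and at 85.33, 88.33 and 97.42 RPKM with shM5. Slc3a2, the CD98 heavy chain that galectin-3 binds, was listed at 400.06, 378.19 and 129.55 RPKM with shNC and at 113.03, 117.23 and 113.01 RPKM with shM5.

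The sialyltransferase St3gal3 showed the reverse, at 2.71, 2.44 and 7.68 RPKM with shNC and at 7.83, 8.64 and 6.97 RPKM with shM5. So did Gcnt4, of the galactose and N-acetyllactosamine list, at 0.90, 0.84 and 2.58 RPKM with shNC and at 3.57, 3.48 and 2.79 RPKM with shM5. In each of these genes shNC replicate 3 was within or next to the shM5 range. With all 6 libraries their log2 differences were -1.69 for Sqstm1, -1.24 for Slc3a2, 1.05 for St3gal3 and 1.30 for Gcnt4 (limma adjusted p = 0.192 for each). Without shNC replicate 3 they were -2.39, -1.76, 1.56 and 1.79 (limma adjusted p = 2.33e-07, 2.19e-07, 1.35e-05 and 3.03e-05). Mgat3, which adds the bisecting residue, was listed at 5.01, 4.63 and 9.32 RPKM with shNC and at 10.34, 10.76 and 8.21 RPKM with shM5, with a log2 difference of 0.68 (limma adjusted p = 0.192), or 0.996 without that library (limma adjusted p = 0.000213).

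The response to shM5 was also compared between the lines, as the difference of the 2 log2 differences in 1 fit of 12 libraries. With limma 0 of 75 partner genes passed, against 0.102% of 11773 genes tested. An unadjusted p below 0.05 was found for 17 of the 75 partner genes and for 2463 of all 11773 genes tested. Without TM4 shNC replicate 3, 32 partner genes passed, 19 with a higher and 13 with a lower response in TM4 cells, where 38% of all genes tested did. For the members, as values with no test, this difference was 0.33 ± 0.23 for Lgals1, -0.23 ± 0.29 for Lgals8, 0.02 ± 0.27 for Lgals9 and -0.15 ± 0.44 for Lgals3bp. Without TM4 shNC replicate 3 these were 0.52, -0.41, 0.17 and -0.52. Lgals9 turned to -0.15 without C18-4 shM5 replicate 3 and to -0.01 with median-centring. Its sign also turned without C18-4 shNC replicate 1 (-0.10) or 2 (-0.06) and without TM4 shNC replicate 1 (-0.07) or 2 (-0.05). The same held without TM4 shM5 replicate 1 (-0.03) or 2 (-0.04). Lgals3bp turned to 0.13 without TM4 shM5 replicate 3 and to 0.07 without TM4 shNC replicate 1.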

How the data were processed

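The members, the lists of partner genes and markers, and the comparisons were chosen with earlier results of these data known. RNA-seq of 12 libraries was used, 3 in each of 4 groups. The authors prepared poly(A) RNA libraries, mapped reads to reference genes with SOAPaligner and transformed the reads on each gene into RPKM, and the deposited RPKM values carry 2 decimals for 17995 genes. The genome build and annotation are not given in the sources used here. Read numbers are lost in RPKM, the counting error behind each value is unknown, and tests that need counts were not run. RPKM summed to between 506413 and 540231 per library, which does not measure depth. The relative value of 1 read, taken from low values, lay between 0.984 and 1.004. It was taken only from values within 1.25 times the lowest of each gene, so it could not show a library of much lower depth. The genes used per library ranged from 56 in C18-4 shNC replicate 3 to 106 in TM4 shNC replicate 3.

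Groups and numbers were taken from the sample labels, and each column was matched to 1 library by its name. log2(RPKM + 0.1) was analysed with limma 3.58.1 (R 4.3.3, eBayes with a mean-variance trend), keeping genes whose mean over the libraries compared reached 0.5 RPKM, with Benjamini-Hochberg adjustment and a threshold of 0.05. Differences on this scale understate those of low genes. The comparisons were shM5 with shNC in each line, TM4 with C18-4 cells with shNC, and the difference of the shM5 response between lines. The authors instead used DEGseq, which was not run here, and their threshold, an FDR of 0.001 and a log2 ratio of 1, was applied to the limma results as an alternative. Libraries of C18-4 cells with the same number in the labels deviated together from their group means (r = 0.439, 0.409 and 0.631 across genes). Replicates 1 and 2 also did so across numbers (r = 0.341 and 0.345). The data therefore mainly set replicate 3 apart, and the labels give no more than a number. Pairing by number was an assumption, and values with the number as a block rest on it. Other alternatives were a pseudocount of 1, no filter, median-centring, leaving out each library, and leaving out replicate 3. The step was tested on simulated data.

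Named were all members and further family genes, the 5 genes most like Lgals3 and the 3 most like each other member with a mean of at least 1 RPKM, and, of each list and comparison, up to 3 called genes per direction with the largest difference and a mean of at least 1 RPKM, or the 2 largest where none was called. Not every gene so named is described. The gene B3gnt7 and the markers Fshr, Nanos2, Sall4 and C1qa were not analysed here. Marker lists of Leydig cells summed to 1.58 RPKM or less in every library, and those of spermatogonia to 7.61 RPKM or less. The Sertoli list summed to 75.6 to 87.2 RPKM in C18-4 cells and to 27.9 to 67.2 RPKM in TM4 cells. Promoters were read from RefSeq on GRCm38.p6 with Python 3.11.15, and figures were drawn with matplotlib 3.10.9.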

Additional observations from a re-analysis of the deposited data

How the results depend on the processing

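The number of genes that passed in C18-4 cells with shM5 (68) depended on the settings: it was 4 with no filter, 0 at the study's threshold, 1386 with the replicate block, 3029 without replicate 3 of both groups, and 0 to 237 when single libraries were left out, with 237 without shNC replicate 3 and 31 without shM5 replicate 3. For partner genes there (0) it was 9 with the replicate block, 26 without replicate 3 of both groups, and 0 to 3 with single libraries left out. In TM4 cells (0) it was 8016 without replicate 3 of both groups and 0 to 7433 with single libraries left out, and for partner genes 54 and 0 to 49. All of these counts above 0 came from leaving out shNC replicate 3. TM4 libraries share only a number (r = 0.0729, 0.0489 and 0.127), and the replicate block gave 0 genes there. Between the lines, where same-numbered libraries share only a number (r = -0.225, -0.198 and -0.303), the study's threshold left 2265 of 6517 genes and 16 of 40 partner genes. For the difference in response (12 genes) the count was 27 with a pseudocount of 1, 21 with no filter, 23 with median-centring, 0 at the study's threshold, 2 with the replicate block and 0 to 4477 with single libraries left out, the last without TM4 shNC replicate 3 and 31 without C18-4 shNC replicate 3, and of the partner genes (0) 1 passed with median-centring. The cause was not tested. In TM4 cells, Lgals3bp turned its sign when shNC replicate 1 (0.10), shNC replicate 2 (0.02) or shM5 replicate 3 (0.16) was left out, and so it did in C18-4 cells without shNC replicate 1 (-0.04), shNC replicate 2 (-0.08) or shM5 replicate 3 (-0.06). The signs of Lgals1, Lgals3, Lgals8 and Lgals9 within each line, of Lgals7 in C18-4 cells, and of the 5 members fitted between the lines in shNC cells were the same with a pseudocount of 1, median-centring, the replicate block and each library left out. Members were not refitted with no filter or at the study's threshold. With single libraries of TM4 cells left out, the log2 difference of Lgals3 lay between -0.52 and -0.42. Low members such as Lgals4 and Lgals7 rest on few reads of unknown number.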
